A study of Mus musculus with 6 samples.

Results

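The genes described here build the transport system of the photoreceptor cilium. They comprise 9 genes of intraflagellar transport complex B (IFT-B), 3 of complex A (IFT-A), 5 ciliary motor genes, 6 genes of the BBSome, 2 chaperonin-like BBS genes and 10 genes of the connecting cilium, 35 in all. They were picked by symbol, with a rule that uses known roles and no measured value, from the 24346 gene symbols listed for each retinal RNA library. Every one of the 35 was listed and passed the filter on low values, a mean of at least 0.5 FPKM over the 6 libraries. FPKM scales fragments to transcript length and to the mapped fragments of the library, so it can be compared between genes.

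Retinal mRNA of mice was sequenced for 2 genotypes, with 3 libraries of Unc119+/+ (wild type) and 3 of Unc119-/- (knockout). UNC119 binds lipid-modified proteins such as transducin, and the series asks what its loss does to the retina. The labels name no other allele, treatment or agent in either genotype. The sources used here give no age, sex, batch or construction of the Unc119 allele. The labels do not say that each library came from a separate animal, so the p-values measure the spread between these libraries, which may be partly technical.

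The light-sensing outer segment of rods and cones is a modified cilium, joined to the cell body by a narrow connecting cilium that corresponds to the transition zone of other cilia. Membrane and proteins made in the cell body reach the outer segment through it. IFT trains travel along the microtubules of the axoneme, outward on kinesin-2 motors with IFT-B and back on dynein-2 with IFT-A. The BBSome rides on these trains and carries membrane proteins, while the proteins of the connecting cilium anchor the membrane and act as a gate. Inherited defects in many of these genes cause retinal degeneration, alone or within syndromes such as Bardet-Biedl, Joubert and Senior-Løken syndrome. UNC119 brings lipid-modified cargo to the same cilium by a separate route, in which the GTPase ARL3 releases the cargo.

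Unc119 itself was lower in the knockout. It was at 1191, 1187 and 1206 FPKM in wild-type replicates 1 to 3 and at 510, 460 and 449 FPKM in the knockout replicates. The 2 genotypes did not overlap, and the knockout kept 39.6% of the wild-type level (log2 change -1.34, SE 0.06, limma adjusted p = 6.6e-05). The libraries also differed in ways the genotype labels do not describe. A list of 23 lens genes made up 0.0515%, 0.247% and 0.00878% of the summed FPKM in the wild-type libraries and 0.0898%, 0.205% and 3.54% in the knockout libraries. Knockout replicate 3 thus held the most lens RNA and wild-type replicate 3 the least, with the lens crystallin gene Cryaa at 5296 FPKM in the first and listed at 0 in the second. The summed level of 15 rod genes, which mark the labelled tissue, ran from 33227 to 36214 FPKM in wild type and from 33968 to 35817 FPKM in the knockout. Relative depth, read from genes of at most 0.3 FPKM and set to 1 in wild-type replicate 2, was lowest in wild-type replicates 1 and 3 (0.762 and 0.810) and ran from 0.927 to 0.964 in the knockout. Xist and Ddx3y mRNA marked 3 libraries as female (wild-type replicate 3, knockout replicates 2 and 3) and the others as male. In whole retina, fewer cells of a type and less RNA per cell cannot be told apart.

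Many ciliary genes carry an X-box, the element bound by RFX transcription factors, close to their start. RefSeq promoter windows (GRCm38.p6, 250 bases before to 50 after an annotated start) were matched for 32 of the 35 genes. The short X-box element GTTGCC, read on both strands, was in a window of 14 of these 32 genes (43.8%), against 14.1% of all genes with a window and 15% of the genes tested. The longer form reads GTNNCC, then 3 bases of any kind, then GNNAC, where N is any base, and can contain the short element. It was in a window of 7 of the 32 (21.9%), against 5.26% of all and 6.51% of the tested genes. A list of other ciliary genes held both about as often, at 36.4% and 23.6% of 55 genes with a window. The windows of the 35 genes were about as rich in G and C (median 59.8%) as those of the tested genes (60.8%). A match is a description of the sequence only and does not show that a factor binds there.

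The matches of the longer form are shown because they are a sequence feature that was not used to choose the genes. Of the 7 genes that hold one, 3 encode BBSome subunits (Bbs1, Bbs4 and Bbs7), 1 an IFT-B subunit (Ift57), 1 the dynein-2 heavy chain (Dync2h1) and 2 proteins of the connecting cilium (Ahi1 and Nphp4). Each line gives the strand of the gene, 5′ to 3′, with the 14 matched bases in capitals and 5 neighbouring bases on each side in lower case. The second Ift57 match reads as the longer form on the opposite strand.
Bbs1, chr19:4906608-4906631, minus strand: agctgGTTGCCAAGGCGACgcctg
Bbs4, chr9:59353467-59353490, minus strand: agctgGTCGCCCGGGAAACggtcg
Bbs7, chr3:36613492-36613515, minus strand: ccccgGTTGCCTTGGAAACcggcc
Ift57 first, chr16:49699202-49699225, plus strand: gtctgGTTGCCGTGGTGACcggct
Ift57 second, chr16:49699237-49699260, plus strand: gcctgGTAACGGTGGGGACtgtgc
Dync2h1, chr9:7177025-7177048, minus strand: aagcgGTCGCCATAGCGACggagc
Ahi1, chr10:20952563-20952586, plus strand: tctgaGTTACCTAGGCAACagcgg
Nphp4, chr4:152477906-152477929, plus strand: tgcccGTCTCCTAGGTAACgcgcc
Counted from 0 at the annotated start, the first matched base lay at -121 in Bbs7, -87 and -52 in Ift57 and -231 in Nphp4. In Bbs1, Bbs4, Dync2h1 and Ahi1 it lay just after the start, at 1, 23, 15 and 21. These are RefSeq starts. Those of Dync2h1, Nphp4, Bbs7 and Ift57 lie more than a few bases inside the gene as GENCODE M21 annotates it. The GENCODE 5′ ends are chr9:7184446, chr4:152476706, chr3:36613477 and chr16:49699233, in that order. The second Ift57 match thus lies within the GENCODE gene. The short element, on either strand, is part of the match in Bbs1, Bbs7, Ahi1 and the first Ift57 site.

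Ciliary transport genes were among the more abundant mRNAs of these retinas. Over the 6 libraries their median level was 23.1 FPKM, and 29 of the 35 lay above 11 FPKM, the median of all genes tested. The order ran from Rpgrip1, which tethers RPGR at the connecting cilium, at 126 ± 11.8 FPKM in wild type (SD, n = 3), down to Kif17 at 1.25 ± 0.288 FPKM. Kif17, a kinesin-2 that works without the heterotrimeric motor's subunits, was the only one of the 35 with a mean below 5 FPKM. Below Rpgrip1 came Bbs4 (81.0 ± 7.53 FPKM) and Bbs7 (79.8 ± 8.62 FPKM), which did not differ beyond their spread, then Ift20 (63.0 ± 4.93 FPKM). Ahi1 (53.2 ± 4.59 FPKM) and Bbs5 (52.5 ± 2.47 FPKM) followed and likewise did not differ beyond their spread.

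Levels differed more between complexes than between genotypes. BBSome subunits had a median of 49.8 FPKM (range 24.2 to 81.2), IFT-B subunits 18.3 FPKM and IFT-A subunits 17.2 FPKM. Per gene, the BBSome mean was 2.37 ± 0.0899 times the IFT-B mean in wild type and 2.42 ± 0.201 times in the knockout (SD, n = 3 libraries each). The motor genes had a median of 26.5 FPKM and the connecting cilium genes one of 18.9 FPKM.

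**Figure D1:**
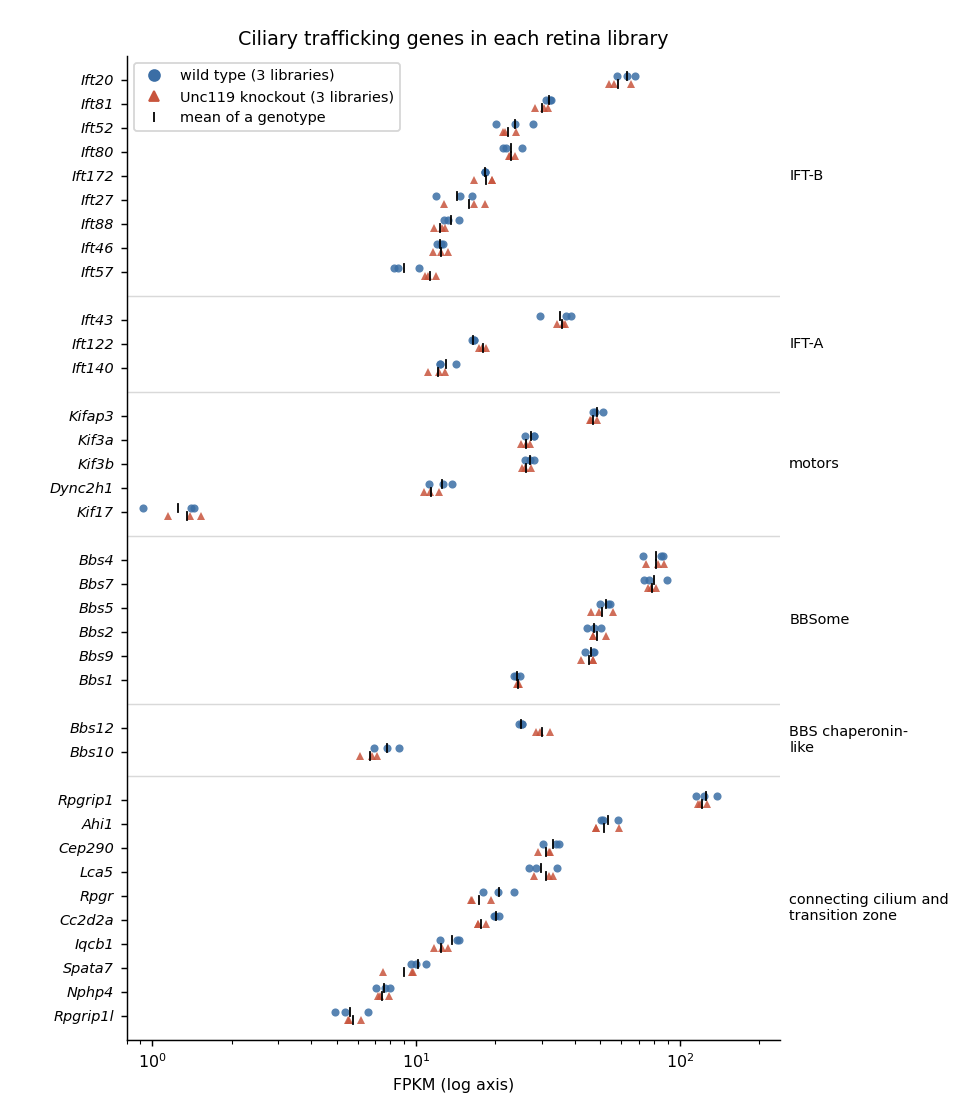
FPKM (log axis) of each of the 35 genes in every library, grouped by complex, with 1 point per library and 1 colour per genotype. Levels run from about 1 FPKM for Kif17 to over 100 FPKM for Rpgrip1, and for most genes the 2 genotypes' points lie on top of each other.

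Loss of Unc119 was not accompanied by a detectable change in any of the 35 genes. By limma with p-values adjusted by Benjamini-Hochberg over the 14176 genes tested, 0 of 35 passed an adjusted p of 0.05, where 0.233% of all genes tested did (33 genes, with 29 or 0.205% higher and 4 or 0.0282% lower in the knockout). At an unadjusted p under 0.05, 3 of 35 passed (8.57%). Of these, Bbs12 and Ift57 had higher values, as did 736 of all genes tested (5.19%), and Cc2d2a had lower values, as did 540 (3.81%). Libraries of the genotypes were fully apart in 4 of the 35 (11.4%, against 15.9% of all genes tested), which were Bbs12, Ift57 and Ift122 with every knockout library above (7.83% of all genes tested), and Cc2d2a with every knockout library below (8.04%). These shares lie near or below those of all genes tested.

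The intervals give the range of changes these libraries leave possible. Changes (knockout minus wild type, log2(FPKM + 1) scale) ran from -0.24 (Rpgr) to 0.29 (Ift57), with 14 values above 0 and 21 below. Their median was -0.05, beside -0.00 for all genes tested. For all 35 genes the 95% interval of the change in FPKM + 1 lay within 1.5-fold in either direction, as it did for 86.9% of the genes tested. For 26 (74.3%, against 54.0% of the genes tested) it lay within 1.25-fold. On this scale the change of a low gene such as Kif17 is understated, so its limit in FPKM is wider. The outermost interval bounds over the 35 were -0.49 (Rpgr) and 0.51 (Ift57).

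**Figure D2:**
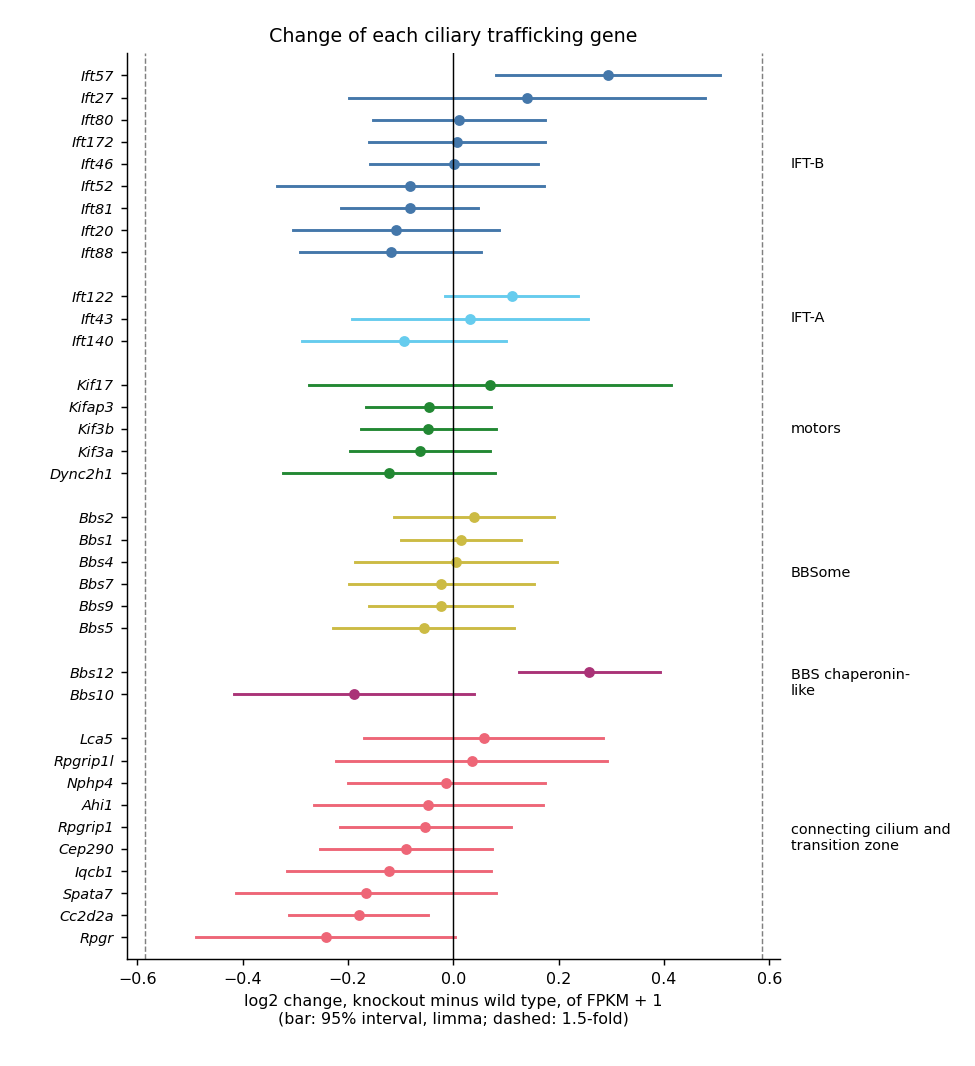
Change of each of the 35 genes in the knockout on the log2(FPKM + 1) scale, with its 95% interval from limma, grouped by complex, with dashed lines at 1.5-fold. Only the intervals of Bbs12, Ift57 and Cc2d2a leave out 0, before any adjustment for the number of genes tested.

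**Figure D3:**
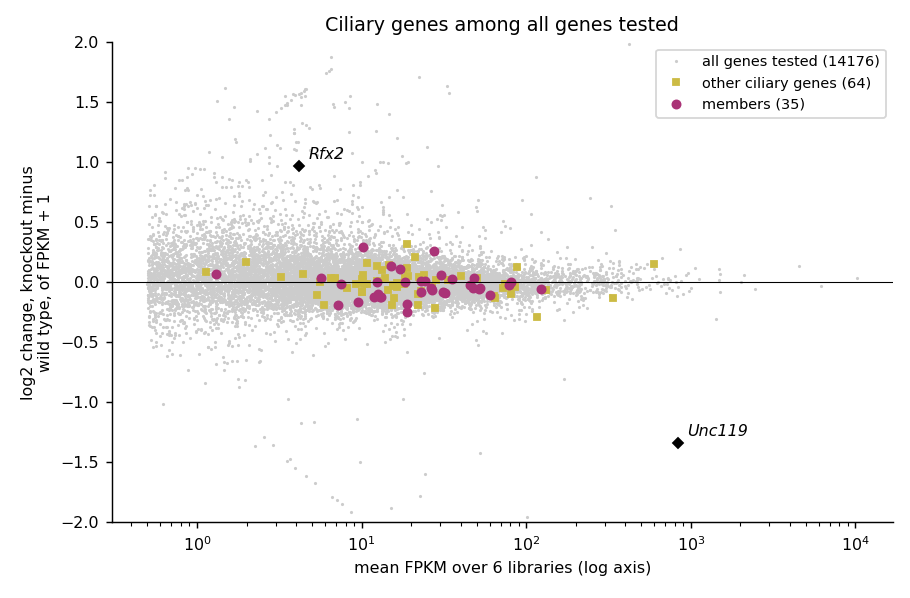
Change in the knockout (log2 scale) against mean level (FPKM, log axis) for all genes tested (grey), with the 35 genes (circles), the other ciliary genes (squares), Unc119 and Rfx2 (diamonds) marked and 28 tested genes beyond the plotted 2 log2 units left off. Most of the 35 lie above 11 FPKM and all lie between -0.24 and 0.29.

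IFT-B, the complex of outward trains, kept its summed level at 209 ± 11.4 FPKM in wild type against 204 ± 7.18 FPKM in the knockout (SD, n = 3). Of its 9 genes, 5 had values above wild type and 4 below, with a median change of 0.00. Ift20, which also sorts ciliary cargo at the Golgi, was its most abundant gene at 67.9, 58.1 and 62.9 FPKM in wild type against 56.1, 53.9 and 65.2 FPKM in the knockout. These libraries overlapped, and the change of -0.11 (SE 0.08, 95% interval -0.30 to 0.09) did not pass the test (limma adjusted p = 0.715).

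Ift57, a peripheral IFT-B subunit, had the largest positive value of the 35. It was at 8.58, 10.3 and 8.27 FPKM in wild type and at 11.9, 10.8 and 11.1 FPKM in the knockout. Every knockout library lay above every wild-type library, though wild-type replicate 2 came within 1 FPKM of the lowest of them. The change of 0.29 (SE 0.09, 95% interval 0.08 to 0.51) did not pass adjustment (limma adjusted p = 0.436).

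The remaining IFT-B subunits had smaller values of change than Ift57, and none passed the test. Ift27, a small GTPase that links the trains to the BBSome, was at 14.3 ± 2.18 FPKM in wild type against 15.9 ± 2.82 FPKM in the knockout. Ift88, whose partial loss in mice leaves photoreceptors without proper outer segments, was at 13.5 ± 0.951 and 12.4 ± 0.615 FPKM. The tubulin-binding subunit Ift81 and the core subunit Ift52 both had a change of -0.08. Ift46, Ift80 and Ift172 had changes between 0.00 and 0.01.

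IFT-A, the complex of returning trains, summed to 64.5 ± 5.28 FPKM in wild type against 65.6 ± 1.71 FPKM in the knockout. Its most abundant gene, Ift43, was at 38.7, 29.5 and 36.9 FPKM in wild type and at 35.9, 34.1 and 36.8 FPKM in the knockout (change 0.03, 95% interval -0.19 to 0.25, limma adjusted p = 0.939). The core subunit Ift122 was at 16.3, 16.5 and 16.7 FPKM in wild type and at 17.4, 18.4 and 17.9 FPKM in the knockout. All 3 knockout libraries lay above all 3 wild-type libraries, yet the change was small at 0.11 (SE 0.05, 95% interval -0.02 to 0.24, limma adjusted p = 0.594). Ift140, the third subunit, was at 13 ± 1.07 and 12.1 ± 0.896 FPKM.

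The motor genes of both directions were close to their wild-type levels. Kif3a and Kif3b, the motor subunits of heterotrimeric kinesin-2, were present at nearly equal levels, with a ratio of 1.01 ± 0.0637 in wild type and 1.0 ± 0.0448 in the knockout. Their adaptor Kifap3 was the most abundant motor gene, at 51.0, 47.6 and 46.7 FPKM in wild type against 48.4, 46.2 and 45.9 FPKM in the knockout (change -0.05, 95% interval -0.17 to 0.07, limma adjusted p = 0.802). Dync2h1, the heavy chain of the returning motor, was at 12.5 ± 1.22 and 11.4 ± 0.725 FPKM. For Kif17 the interval ran from -0.27 to 0.41.

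The BBSome was the subgroup with the smallest values of change. Its 6 genes summed to 331 ± 13.9 FPKM in wild type against 328 ± 15.9 FPKM in the knockout, with single changes from -0.06 (Bbs5) to 0.04 (Bbs2). All 6 intervals lay within 1.25-fold. Bbs4, its most abundant gene and a subunit of the coat, was at 84.6, 86.1 and 72.4 FPKM in wild type against 82.7, 87.0 and 74.2 FPKM in the knockout (change 0.01, 95% interval -0.19 to 0.20, limma adjusted p = 0.988). Bbs1, which binds the GTPase ARL6 that brings the BBSome to membranes, spread least, at 23.6, 24.7 and 23.9 FPKM against 24.1, 24.5 and 24.4 FPKM. Its interval ran from -0.10 to 0.13.

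The chaperonin-like proteins BBS10 and BBS12 help to assemble the BBSome, and their mRNAs had values on opposite sides of wild type. Bbs12 was at 25.1, 25.1 and 24.6 FPKM in wild type and at 28.5, 32.1 and 29.6 FPKM in the knockout. Every knockout library lay above every wild-type library, and the wild-type libraries were within 1 FPKM of each other. The change of 0.26 (SE 0.06, 95% interval 0.12 to 0.39) had the smallest p of the 35 genes but did not pass adjustment (limma adjusted p = 0.245). Bbs10 was at 7.73, 6.93 and 8.61 FPKM in wild type and at 7.09, 6.13 and 6.78 FPKM in the knockout. Those libraries overlapped, and the change was -0.19 (SE 0.10, 95% interval -0.42 to 0.04, limma adjusted p = 0.610). It was -0.12 without wild-type replicate 3 and -0.11 with the lens term, which adjusts for the mean log2 level of lens genes. The ratio of Bbs12 to Bbs10, computed after the values were seen, ran from 2.86 to 3.63 in wild type and from 4.02 to 5.24 in the knockout.

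The genes beside Bbs12 on chromosome 3 were looked at after its values were known, in a window of 100 kb on either side, as were those of the other 5 genes with the smallest p. Coordinates are those of GENCODE M21 on GRCm38, which corresponds to the mm10 build of the files. Bbs12 (chr3:37312554-37321453, plus strand) overlaps the first 155 bases of Cetn4 (chr3:37307749-37312708, minus strand), a centrin gene. Cetn4 was at 7.99, 7.26 and 7.58 FPKM in wild type and at 12.6, 10.4 and 12.1 FPKM in the knockout. Its groups did not overlap, and the change of 0.56 (SE 0.09, 95% interval 0.36 to 0.76) missed the threshold (limma adjusted p = 0.0782). No source used here gives the strand setting of the counting, so reads of the shared bases cannot be assigned to one gene or the other.

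Farther along, Fgf2 was the single called gene of the window. This gene, which encodes a fibroblast growth factor that rises in many injured retinas, begins 26892 bases past the end of Bbs12 (chr3:37348346-37410108, plus strand). It rose from 1.32, 2.78 and 1.88 FPKM in wild type to 10.5, 19.8 and 16.2 FPKM in the knockout (change 2.45 on the log2 scale, limma adjusted p = 0.0101). That call was lost in 3 alternatives, with limma adjusted p values of 0.0861 with the lens term and 0.0565 and 0.0642 without wild-type replicates 1 and 3. Nudt6, the gene antisense to its end (chr3:37404910-37420211), was at 3.34, 3.12 and 5.62 FPKM in wild type and at 9.97, 17.1 and 11.1 FPKM in the knockout, again without overlap (change 1.45, limma adjusted p = 0.0864). Beyond Nudt6 lies Spata5 (chr3:37419896-37579096, plus strand), with a change of -0.05 (95% interval -0.23 to 0.13, limma adjusted p = 0.867). Of the 5 tested genes of the window, 4 had every knockout library above wild type, as did 7.83% of all genes tested. Bbs12 is among the 4 and chose the window, and the genes partly overlap each other. Counts for the other windows also include the gene that chose each. Groups did not overlap for 1 of 2 tested genes around Ift57 (Ift57 itself) and 2 of 3 around Cc2d2a (Cc2d2a and Bst1). The counts were 0 of 3 around Rpgr, 2 of 10 around Ift122 (Ift122 and Tmem40) and 0 of 2 around Bbs10. Over all genes tested the share was 15.9%, and none of the genes in these windows was called. Whether the values of Bbs12 depend on those of its neighbours was not tested.

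**Figure D4:**
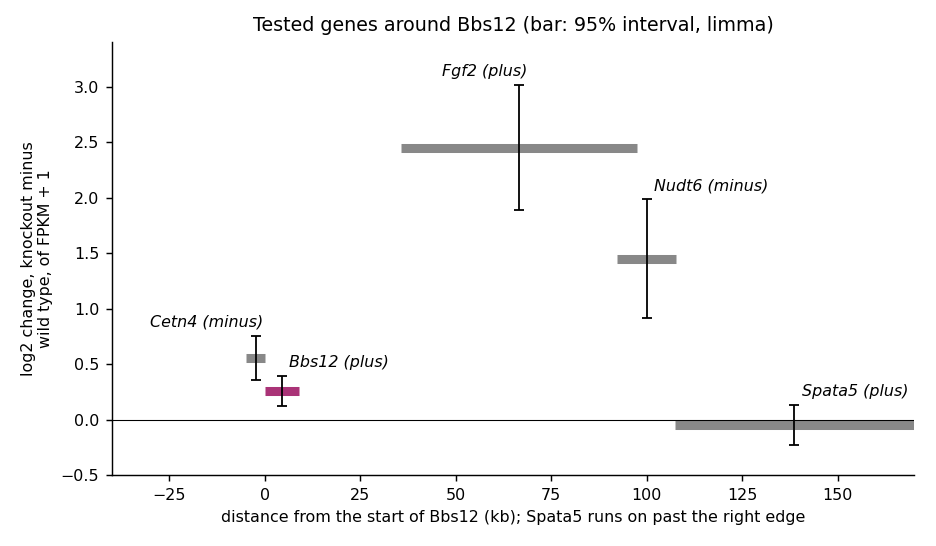
Genes tested around Bbs12 by distance from its start in kb, with bars spanning each gene and height giving the change in the knockout on the log2(FPKM + 1) scale with its 95% interval. Change is largest for Fgf2 (2.45), smaller for Nudt6, Cetn4 and Bbs12, and near 0 for Spata5 at the far end.

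Of the 10 connecting cilium genes, 8 had values below wild type, as did 4 of the 5 motor genes. The median change of the 10 was -0.07. Other genes of the transition zone and connecting cilium, from the list of other ciliary genes, did not share that direction as a set. Of 32 tested, 17 had values above wild type (53.1%, against 49.3% of all genes tested), with a median change of 0.01. The sum of the 10 was 320 ± 10.8 FPKM in wild type against 304 ± 17.1 FPKM in the knockout. The difference was less than 1 SD of the knockout libraries but more than 1 SD of the wild-type libraries. Rpgrip1, the most abundant of all 35 genes, was at 115, 124 and 138 FPKM in wild type and at 127, 119 and 117 FPKM in the knockout (change -0.05, 95% interval -0.22 to 0.11, limma adjusted p = 0.840). Its groups overlapped, with wild-type replicate 1 the lowest of all and wild-type replicate 3 the highest.

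Cc2d2a, a transition zone scaffold mutated in Joubert syndrome, was the only one of these genes whose groups did not overlap. It was at 19.7, 19.9 and 20.7 FPKM in wild type and at 18.5, 17.2 and 17.2 FPKM in the knockout. The change of -0.18 (SE 0.06, 95% interval -0.31 to -0.05) did not pass adjustment (limma adjusted p = 0.443). Rpgr, the X-linked retinitis pigmentosa gene, was at 20.5, 18.0 and 23.5 FPKM in wild type and at 19.2, 16.2 and 16.4 FPKM in the knockout. Wild-type replicate 2 lay below knockout replicate 1, and the change was -0.24 (SE 0.11, 95% interval -0.49 to 0.00, limma adjusted p = 0.561). It was -0.15 without wild-type replicate 3 and -0.09 with the lens term. The ratio of Rpgrip1 to Rpgr was 6.13 ± 0.674 in wild type and 7.03 ± 0.392 in the knockout.

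Several other members of the connecting cilium are leading genes of childhood blindness. Cep290, which bridges membrane and microtubules there, was at 33.1 ± 2.49 FPKM in wild type against 31.0 ± 1.76 FPKM in the knockout. Lca5, which encodes lebercilin, was at 29.8 ± 3.78 and 31.0 ± 2.66 FPKM. Spata7 and Iqcb1, which encode further proteins of this compartment, were at 10.1 ± 0.678 and 13.7 ± 1.23 FPKM in wild type, against 8.97 ± 1.25 and 12.5 ± 0.758 FPKM in the knockout. Ahi1, the Joubert syndrome gene, was at 53.2 ± 4.59 and 51.6 ± 6.29 FPKM. The transition zone genes Nphp4 and Rpgrip1l had changes of -0.01 and 0.03.

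The lower values of the 10 connecting cilium genes were spread unevenly over the libraries. Relative to the wild-type mean, the median of the 10 genes was -0.04, -0.02 and 0.07 in the wild-type libraries and -0.04, -0.06 and -0.16 in the knockout libraries (log2 scale). Knockout replicates 1 and 2 thus lay near wild-type replicates 1 and 2, while knockout replicate 3 was lowest and wild-type replicate 3 highest. Those are also the libraries with the most and the least lens RNA (3.54% and 0.00878% of the summed FPKM). Rod genes followed this order only in part. Their medians were 0.06, -0.06 and 0.00 in the wild-type libraries and 0.02, -0.00 and -0.06 in the knockout libraries. Their share of the summed FPKM was 9.28%, 8.62% and 9.03% in wild type and 9.24%, 9.17% and 8.45% in the knockout. It was thus lowest in knockout replicate 3. Knockout replicate 3 also had the lowest median of 10 cone genes (-0.12) and the highest medians of 8 Müller glia genes (0.22) and 12 microglia genes (0.65). The summed level of the cone genes was not lowest there. It was 1127 FPKM in that library, against 1052 to 1124 FPKM in wild type and up to 1172 FPKM in the knockout. The microglia median was not particular to that library. It was at 0.35, 0.49 and 0.65 in the knockout libraries, against -0.09, 0.05 and -0.01 in wild type. With the mean log2 level of the lens genes as a term in the fit, the median change of the 10 genes was -0.00, and without knockout replicate 3 it was -0.05. The part of lens RNA or of these other cell types in the values was not tested further.

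**Figure D5:**
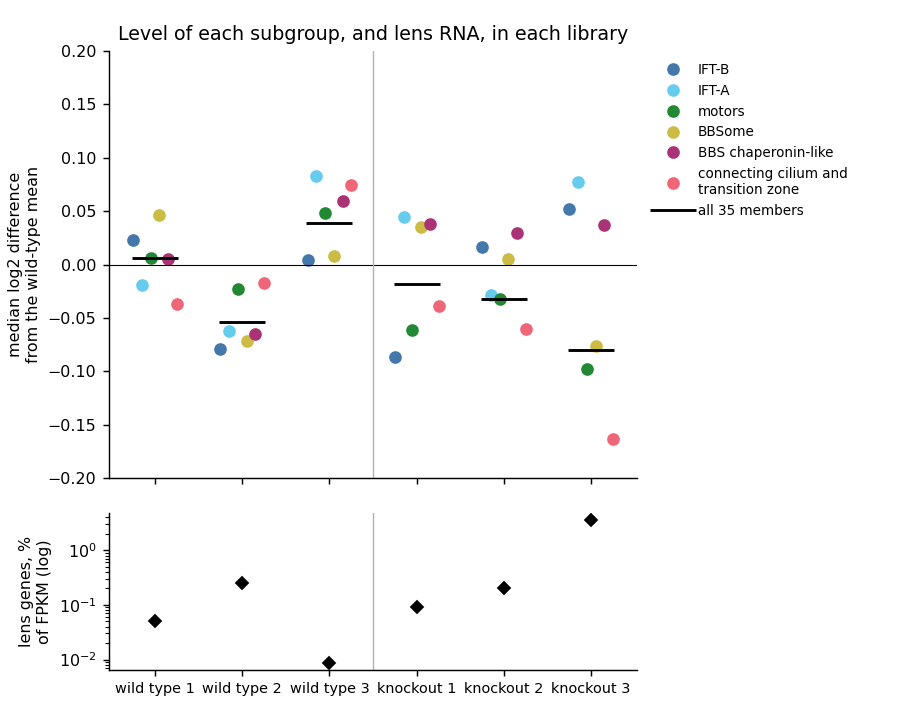
Upper panel, median deviation from the wild-type mean (log2 scale) in each of the 6 libraries for each subgroup (points) and all 35 genes (lines), and lower panel, share of summed FPKM from lens genes (percent, log axis). The connecting cilium stands at -0.16 in knockout replicate 3 and at 0.07 in wild-type replicate 3, the libraries with the highest and the lowest lens share.

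The spans of 10 of the 35 genes, introns included, overlap another listed gene, 8 on the opposite strand and 2 on the same strand. The same-strand pairs were Rpgr with Srpx, over 44089 bases, and Kif17 with Sh2d5, over 10898 bases. Iqcb1 overlaps Eaf2 along 44337 bases on the opposite strand, and Rpgrip1 shares 3133 bases with Supt16. Lca5 overlaps only Gm2087, which was at 0 FPKM in both genotypes. Whether exons overlap was not examined, so how far the values of these genes could include shared reads is not known.

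The rest of the ciliary machinery was read from a separate list of genes not on the first list, of which 64 were tested. By limma, 0 of 64 passed the adjusted threshold and 8 had an unadjusted p under 0.05 (12.5%, against 9.0% or 1276 of all genes tested), 4 higher and 4 lower. The values split evenly, 32 above wild type and 32 below, with a median of 0.00. For 63 of the 64 the 95% interval lay within 1.5-fold, and 11 (17.2%, against 15.9% of all genes tested) did not overlap between the genotypes.

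Among these, Fam161a had the smallest p. This gene encodes a microtubule-binding protein of the connecting cilium and was at 125, 127 and 133 FPKM in wild type and at 112, 102 and 100 FPKM in the knockout. The groups did not overlap (change -0.29, SE 0.05, limma adjusted p = 0.158). Tmem107, a membrane protein of the transition zone, went the other way, from 20.2, 19.1 and 19.3 FPKM to values of 22.7, 23.3 and 22.5 FPKM (change 0.21, limma adjusted p = 0.297). Tulp1, a photoreceptor protein needed to deliver opsins to the outer segment, was at 577, 550 and 576 FPKM in wild type and at 663, 605 and 626 FPKM in the knockout (change 0.15, limma adjusted p = 0.454). Its libraries also did not overlap.

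Lztfl1, which restrains entry of the BBSome into cilia, was at 24.1, 23.4 and 22.6 FPKM in wild type and at 19.8, 21.8 and 19.6 FPKM in the knockout (change -0.19, limma adjusted p = 0.454). Hspb11, an IFT-B subunit that pairs with IFT27, was at 16.9, 14.3 and 19.1 FPKM against 20.9, 23.6 and 18.8 FPKM, and its groups overlapped (change 0.32, limma adjusted p = 0.499). Mak, a kinase that limits the length of photoreceptor cilia, was at 80.2, 83.2 and 87.6 FPKM against 93.4, 92.6 and 87.8 FPKM (change 0.12, limma adjusted p = 0.522). The libraries of Lztfl1 and Mak did not overlap between genotypes, and none of these 6 genes passed the test.

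The RFX factors that read the X-box were compared beside their target element. Rfx2, a regulator of ciliary genes, was at 2.33, 2.87 and 2.32 FPKM in wild type and rose to 5.82, 6.02 and 5.71 FPKM in the knockout (change 0.97 on the log2 scale, SE 0.10, 95% interval 0.74 to 1.20, limma adjusted p = 0.0116). The libraries of each genotype were close together and far from those of the other. That call was lost in 6 alternatives, with adjusted p values of 0.0701 with the replicate block, 0.133 with the lens term, 0.0688 and 0.0696 without wild-type replicates 1 and 3, and 0.0680 and 0.0957 without knockout replicates 1 and 2, while the change stayed between 0.91 and 1.20. Rfx1 and Rfx3 had changes of 0.14 and -0.16, with limma adjusted p values of 0.582 and 0.584. For Rfx5 and Rfx7 the changes were 0.05 and -0.11, with limma adjusted p values of 0.862 and 0.720. Rfx4 did not pass the filter on low values and was not tested.

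Changes of genes with and without an X-box are given side by side, with no test of the difference. Of the 14 ciliary transport genes with the short element, 6 had values above wild type and the median change was -0.02. The 18 without it had 6 above and a median of -0.05. With the longer form the median was -0.01 over 7 genes, against -0.05 over the other 25. Across all tested genes with a promoter window, the median was -0.00 both for the 1605 with the short element and for the 9100 without it.

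UNC119's own delivery route meets the IFT and BBSome genes at the cilium. Arl3, which releases UNC119's cargo, was at 204 ± 12.9 FPKM in wild type against 211 ± 9.25 FPKM in the knockout. Pde6d, the carrier of prenylated proteins, was at 85.1 ± 2.22 and 83.6 ± 4.31 FPKM. Both belong to a list of lipidated cargo transport genes, which also holds Unc119. Of its 7 tested genes, Unc119 alone was called, where 0.233% of all genes tested were. Arl3 was 1 of 2 with values above wild type, and the median change was -0.10. Relative to the wild-type mean, the list's median was -0.01, -0.01 and 0.01 in the wild-type libraries. It was -0.06, -0.09 and -0.07 in the knockout libraries. Rp2h had a change of -0.11 (limma adjusted p = 0.742).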

How the data were processed

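Per the submitters' processing notes, TopHat2 2.1.1, Cuffdiff 2.2.1 and the mm10 build were used. Neither gene annotation nor strand setting is given in the sources used here. FPKM values were deposited by the authors, 1 table per library, with no counts, so the depth behind each value is unknown. The genotypes were compared with limma 3.58.1 (R 4.3.3) on log2(FPKM + 1), with a variance trend, over the 14176 genes with a mean of at least 0.5 FPKM, two-sided. P-values were adjusted by Benjamini-Hochberg over these genes, with a threshold of 0.05. An exact permutation test of 3 against 3 libraries cannot go below 0.1. The fit was tested on simulated data. Tables were joined in Python 3.11.15 with pandas 2.3.3.

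The rule for the members uses known roles only, but the members and lists were chosen with earlier results of these data known. Full statistics are given for Unc119, called members, the 6 members with the smallest unadjusted p, the most abundant member of each subgroup and the 6 other ciliary genes with the smallest p; the rest are given by level, range and count. Promoter windows are RefSeq's. Cetn4, Fgf2, Nudt6, Spata5 and Rfx2 were named after their values were seen. Alternatives were another pseudocount, no filter or a stricter one, 2 rescalings, no variance trend, a replicate block, a lens or sex term, and leaving out each library.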

Additional observations from a re-analysis of the deposited data

How the results depend on the processing

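None of the 35 ciliary transport genes was called in any of 524 fits under 15 alternatives, and 16 of the 35 kept their direction in all of them. The smallest adjusted p over these alternatives was 0.222 for Bbs12, 0.319 for Ift57 and 0.384 for Cc2d2a. The median change of the 35 genes was -0.05, and 0.00025 with the lens term. Of all genes tested, 29 were called higher, but 17 without a variance trend, 13 with the replicate block, 5 with the lens term, 17 with the sex term and 9 to 24 when each library was left out in turn. The number called lower was 4, but 2 without the filter, 6 with the stricter one, 2 with the replicate block, 2 with the lens term, 2 with the sex term and 2 to 4 when each library was left out. The cause was not tested. Deviations of same-numbered libraries from their genotype means had correlations of 0.072, -0.0902 and -0.119. Those of differently numbered libraries ran from -0.0846 to 0.166. With 3 libraries per genotype, these values cannot show whether same-numbered libraries share a batch or a pairing. The replicate block called 0 of the 35 genes. At an unadjusted p under 0.05, 5 of the 35 passed without wild-type replicate 2 and 1 with the lens term. The IFT-A median was 0.10 without wild-type replicate 1, -0.08 without wild-type replicate 2 and 0.09 with the lens term. The connecting cilium median was -0.12 without knockout replicate 1. Cetn4 stayed above the threshold, with adjusted p from 0.0519 to 0.391. The depth is unknown, so no counting error can be given for low genes such as Kif17.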

Other observations

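Ift20 begins 187196 bases past the end of the targeted gene on chromosome 11. Within 1 Mb of Unc119, 57 genes were listed and 45 tested. By limma none of the 45 passed the adjusted threshold, against 0.233% of the 14176 genes tested. An unadjusted p under 0.05 was found for 7 of the 45, against 9.0% of all genes tested. Libraries of the genotypes were fully apart in 13 of the 45, against 15.9% of all genes tested. Values above wild type were found for 31 of the 45, against 49.3% of all genes tested. The 7, 13 and 31 are each a larger share of the 45 than of all genes tested, and the cause was not tested. The median change of the 45 was 0.07 on the log2(FPKM + 1) scale, whereas Ift20 was at -0.11.

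Genes of motile cilia were read as markers of other ciliated cells. Of 13 listed, 6 passed the filter, and the list's sum ran from 23.5 to 25 FPKM in wild type and from 22.3 to 25.9 FPKM in the knockout, with none called and 3 of the 6 above wild type. Of the other BBS genes, outside the 35, all 7 tested had values below wild type, with a median of -0.07, and none passed the test. The remaining parts of the list of other ciliary genes were mixed. Values above wild type were found for 6 of 11 IFT genes, 4 of 5 motor genes and 5 of 9 cargo and membrane genes. They were also found for 17 of 32 transition zone and connecting cilium genes, against 49.3% of all genes tested. Rp1, a microtubule-associated protein of the outer segment axoneme, was at 352 ± 15 FPKM in wild type against 322 ± 17.9 FPKM in the knockout (change -0.13, limma adjusted p = 0.551).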
